A study of Mus musculus with 2 samples.

Results

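The microRNAs (miRNAs) described here are mmu-miR-204, mmu-miR-211, mmu-miR-1298, mmu-miR-448 and mmu-miR-1264. They were chosen by name, as miRNAs tied to the choroid plexus or to the gene of the serotonin 2C receptor, Htr2c. Their counts were not the rule of choice, but earlier results of these data were known. Of the 5 names, 4 were found among the 405 known miRNA names without a star that were detected in the study, and they gave 5 entries because miR-448 was counted for both arms of its hairpin. No read of miR-211 was found. The 5 entries held 9841 young and 6516 old reads.

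Small RNAs of whole brain were counted in 2 libraries, young (5 months) and old (24 to 25 months), and each was a mix of cDNA made from 2 male mice of the inbred strain C57BL/6J, with no transgene or treatment in either group. The young library held 4523267 reads and the old library 6658732 reads, counting those that the study had aligned to the mouse genome. With 1 library per age there was no replicate error. The intervals and tests below cover counting error only, and they set these 2 libraries against each other rather than the ages. They treat reads as independent, but amplified reads are not independent molecules, so even the counting error may be understated.

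A miRNA is cut from a hairpin whose arms, 5p and 3p, can each give a short mature strand, and bases 2 to 8 of that strand, the seed, do most of the pairing with target mRNAs. The choroid plexus is the epithelium that secretes cerebrospinal fluid into the ventricles, and it is known for high levels of miR-204, of its relative miR-211 and of Htr2c mRNA. miR-204 lies in an intron of Trpm3 and miR-211 in an intron of Trpm1, both genes of cation channels, while miR-1298, miR-448 and miR-1264 lie in introns of Htr2c. No dissection of the choroid plexus was made, and the files hold small RNAs only, so the mRNA markers of that tissue could not be read. In whole brain, fewer cells of a type and less RNA per cell cannot be told apart.

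The mature strands of the 5 miRNAs, from RefSeq, are shown with the seed in capitals because the seed groups them into families and the last bases separate miR-204 from miR-211.
miR-204-5p: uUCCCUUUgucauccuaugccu
miR-211-5p: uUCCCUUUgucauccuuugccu
miR-1298-5p: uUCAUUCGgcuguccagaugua
miR-448-3p: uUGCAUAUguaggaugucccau
miR-448-5p: gAACAUCCugcauagugcugcc
miR-1264-3p: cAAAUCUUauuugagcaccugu

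miR-204-5p and miR-211-5p share the seed UCCCUUU and their first 16 bases, and they differ by A17U, counted from the 5′ end with the base of miR-204 first. The only other mouse miRNA of the reference with this seed, miR-7670-3p, had 0 reads in both libraries. The seeds of miR-1298-5p, miR-448-3p, miR-448-5p and miR-1264-3p were shared with no other mouse miRNA of the reference, and no seed was shared between the Trpm3 and the Htr2c miRNAs.

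The hairpins of the 3 miRNAs with the most reads are shown with both mature strands in capitals, since the arms are compared below.
Mir204: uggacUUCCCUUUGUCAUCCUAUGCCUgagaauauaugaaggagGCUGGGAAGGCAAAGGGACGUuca
Mir1298: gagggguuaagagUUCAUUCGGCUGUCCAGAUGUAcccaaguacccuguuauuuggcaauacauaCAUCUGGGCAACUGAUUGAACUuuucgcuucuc
Mir448: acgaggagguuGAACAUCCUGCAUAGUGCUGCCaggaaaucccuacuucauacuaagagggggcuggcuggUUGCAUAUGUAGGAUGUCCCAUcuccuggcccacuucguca

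In NCBIM37 (mm9), Mir204 lies at chr19:22825095-22825162 on the plus strand, in intron 6 of 24 of Trpm3. Mir211 lies at chr7:71350692-71350797, plus strand, in intron 6 of 25 of Trpm1. Htr2c spans chrX:143397056-143631820 on the plus strand with 7 exons in the transcript used. Mir1298 is at chrX:143499448-143499545 in intron 3 of 6, and Mir448 is at chrX:143592753-143592864 in intron 5. The hairpin of miR-1264 is at chrX:143445144-143445229, also in intron 3. All of these hairpins lie on the strand of their host gene and overlap no annotated exon.

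miR-1298 and miR-204 were about 3 times lower in the old library, while miR-448-3p was 1.42-fold lower by library totals, though higher once the libraries were scaled to the median miRNA, and miR-1264-3p was too rare to compare. Levels are given as RPM, the reads per 1000000 genome-aligned reads of the library. They count all reads that begin with the same 18 bases as the miRNA, so that variants of the 3′ end were included. miR-1298 had 6645 young and 3372 old reads, or 1469 RPM (95% Poisson interval 1434 to 1505) and 506 RPM (489 to 524). The old library was lower by 2.90-fold, a log2 ratio of old over young of -1.54 (exact 95% interval -1.60 to -1.48), and the p of the exact binomial test was below the smallest number that could be stored.

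miR-204 had 304 young and 148 old reads, or 67.2 RPM (59.9 to 75.2) and 22.2 RPM (18.8 to 26.1). The log2 ratio was -1.60 (-1.89 to -1.31), 3.02-fold lower in the old library. The adjusted p was 6.32e-30 in the exact binomial test with Benjamini-Hochberg adjustment over the 269 known miRNAs tested. The intervals of the 2 libraries were far apart for both miR-204 and miR-1298.

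miR-448-3p had 2876 young and 2988 old reads, or 635.8 RPM (613 to 659) and 448.7 RPM (433 to 465). Its log2 ratio was -0.50 (-0.58 to -0.43), with an adjusted p of 9.34e-40 in the same exact binomial test. The difference was larger than the counting error but smaller than that of the other 2 miRNAs.

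The rarer strands were close to the limit of detection. miR-448-5p had 8 young and 0 old reads, which is at least 3.93-fold lower in the old library when the old count is set to the 3 reads that a count of 0 allows (exact binomial p = 0.000717, not adjusted since it had fewer than 10 reads). That bound leaves out the counting error of the 8 young reads, and the exact 95% interval of the log2 ratio reached up to -1.33. miR-1264-3p had 8 reads in each library, with a log2 ratio of -0.56 (-2.17 to 1.05) and p = 0.454 in the exact binomial test, so no difference was detectable at this depth.

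**Figure D1:**
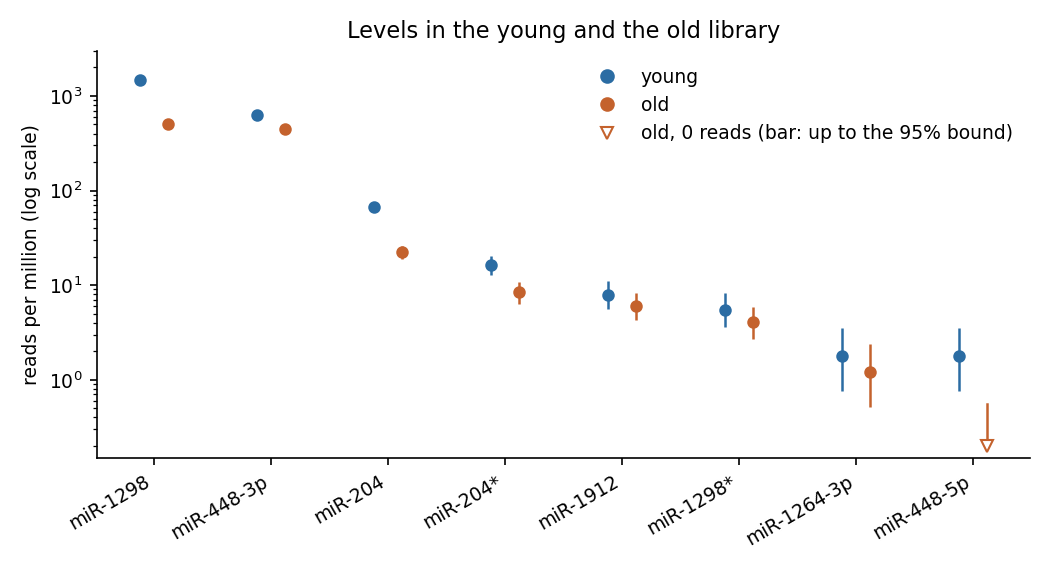
Level of each strand in RPM, on a log scale, in the young (blue) and the old (orange) library. Points are the measured levels and bars are 95% Poisson intervals of the read count, and the open triangle marks miR-448-5p with 0 old reads. miR-1298, miR-448-3p, miR-204, miR-204* and miR-448-5p have separate intervals in the 2 libraries. Those of miR-1912, miR-1298* and miR-1264-3p overlap.

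The order of the levels was miR-1298, miR-448-3p, miR-204 and miR-1264-3p in both libraries, and miR-448-5p was level with miR-1264-3p at 1.77 RPM in the young. In the young library miR-1298 and miR-448-3p differed by 2.31-fold, and in the old library by 1.13-fold. miR-1298 ranked 51 in level among the 269 miRNAs in the young library and 63 in the old, miR-448-3p ranked 68 and 67, and miR-204 ranked 137 and 165. Levels of different miRNAs also depend on how well each is ligated to the adapters, so ranks are on the scale of reads and not of molecules.

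No read of miR-211 was present. Both arms had 0 reads, and no tag matched the Mir211 hairpin. The 3 reads that a count of 0 allows are 0.663 RPM in the young and 0.451 RPM in the old library, or 0.987% and 2.03% of the miR-204 reads. After the 16 shared bases, 304 young and 149 old reads went on with the next base of miR-204 and 0 with that of miR-211. Reads of miR-204 therefore held no detectable share of miR-211.

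Most known miRNAs were lower in the old library on this scale, so the members have to be read against all of them. Of the 3 entries with at least 10 reads in a library, 2 were lower by at least 2-fold, beside 83 of the 269 miRNAs tested (30.9%). None was higher by that much, beside 6 of 269 (2.23%). With TMM or DESeq2 scaling the balance over all miRNAs turned, with 15 lower and 34 higher by that much. In the exact binomial test with Benjamini-Hochberg adjustment all 3 were lower, beside 177 of 269 (65.8%), and 24 (8.92%) were higher. The median log2 ratio of the 269 was -0.72, with quartiles of -1.09 and -0.19. miR-204 had the 20th and miR-1298 the 26th lowest ratio, both below the lower quartile, while miR-448-3p was 160th and lay above the median. With a linear correction for GC content miR-448-3p was at -0.78, below the corrected median of -0.69.

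The scale itself decided the direction for miR-448-3p. When the libraries were scaled so that the median miRNA did not differ (DESeq2's size factors, which move all log2 ratios by 0.72), the log2 ratio of miR-204 was -0.88 and that of miR-1298 was -0.82, both under 2-fold. On that scale miR-448-3p was the higher in the old library, at 0.22. Tags with the starts of the let-7 family and miR-98 took a larger share of the old reads (49.0%) than of the young (34.1%), and a depth without its reads gave -1.23 for miR-204, -1.17 for miR-1298 and -0.13 for miR-448-3p.

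**Figure D2:**
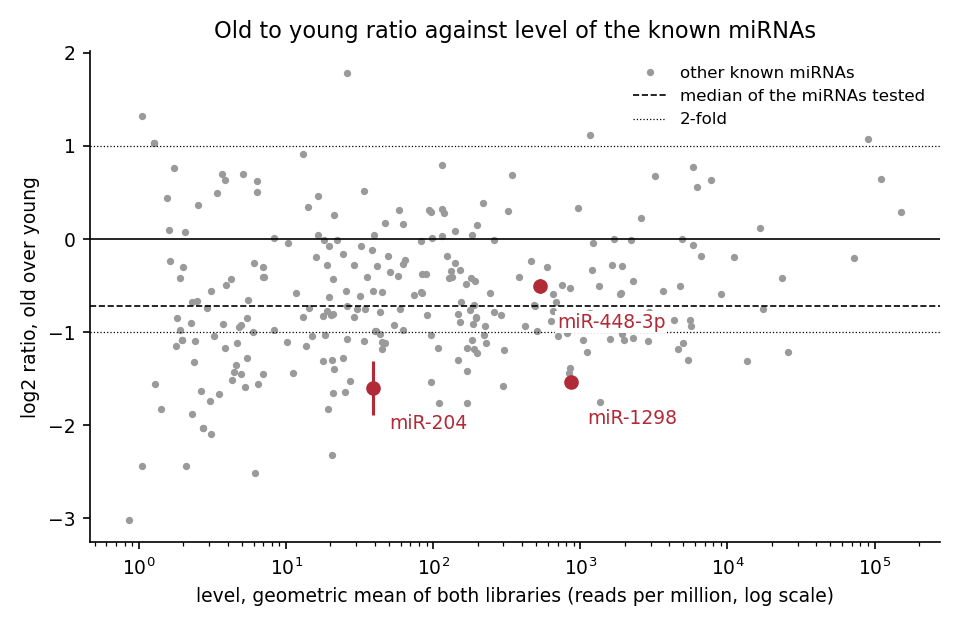
Log2 ratio of old over young against level (geometric mean of both libraries, RPM, log scale) of the 269 known miRNAs tested, 1 point each. Bars on the 3 named miRNAs are exact 95% intervals, the dashed line is the median of -0.72 and dotted lines mark 2-fold, and miR-204 and miR-1298 lie below the lower 2-fold line while miR-448-3p lies above the median.

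The miRNAs nearest in level, by distance in log2 RPM over the 2 libraries, were miR-744, miR-1224 and miR-7b for miR-1298. For miR-204 they were miR-490-3p, miR-666-5p and miR-652, and for miR-448-3p they were miR-1981, miR-379 and miR-27a. The likeness rests on 2 libraries, and the nearest of all was miR-744 to miR-1298, at -1.44 on the log2 scale from 6244 young and 3393 old reads.

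Ratios between miRNAs of the same library do not depend on the depth, so they show whether the members moved alike. The 10 ratios compared were chosen after the counts had been seen, and their p-values are not adjusted. The reads of miR-1298 per read of miR-448-3p, from the same host gene, went from 2.31 in the young to 1.13 in the old library, a log2 change of -1.03 (95% interval -1.13 to -0.94, Fisher's exact p = 1.37e-101). The miR-204 to miR-448-3p ratio went from 0.106 to 0.0495, a log2 change of -1.09 (-1.40 to -0.80, Fisher's exact p = 7.07e-14). miR-1298 and miR-204 therefore both fell against miR-448-3p, whatever depth was used.

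miR-204 and miR-1298, on different chromosomes, had a ratio that did not differ beyond counting error. There were 0.0457 reads of miR-204 per read of miR-1298 in the young and 0.0439 in the old library. The log2 change was -0.06 with an interval of -0.36 to 0.23 (Fisher's exact p = 0.722), so the counts allow a change of up to that size in either direction.

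Of the other miRNA hairpins of Htr2c, those of miR-764 and miR-1912 had ratios near that of Mir448, and not that of Mir1298. In all, 7 annotated miRNA hairpins lay in Htr2c. From the start of the gene they were those of miR-3552, miR-764, miR-1912, miR-1264 and miR-1298 in intron 3, and those of miR-1911 and miR-448 in intron 5. The tags counted matched a hairpin with its 30 flanking bases perfectly and had no other perfect match in the genome. On this count Mir764 had 176 young and 202 old reads, which gave a ratio of -0.36 (-0.66 to -0.06) on the log2 scale. The hairpin of miR-1912 had 35 and 37 reads and a log2 ratio of -0.48 (-1.18 to 0.23).

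Counted in the same way, Mir1298 had 5295 and 2645 reads and a log2 ratio of -1.56 (-1.63 to -1.49), and Mir448 had 2170 and 2316 reads and a log2 ratio of -0.46 (-0.55 to -0.38). Mir1298 lies 102.4 kb from the start of Htr2c, and the nearest hairpins with reads were those of miR-1264 at 48.1 kb and Mir448 at 195.7 kb, with that of miR-1911, which had none, at 144.5 kb. Mir764 and Mir448, on either side of Mir1298, lay above the median ratio of -0.72 of all miRNAs, which was counted by starts, and Mir1298 lay below it. The ratio therefore did not run with the order along the gene. The hairpin of miR-1912 was above the median by its point value, but its interval (-1.18 to 0.23) held the median.

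**Figure D3:**
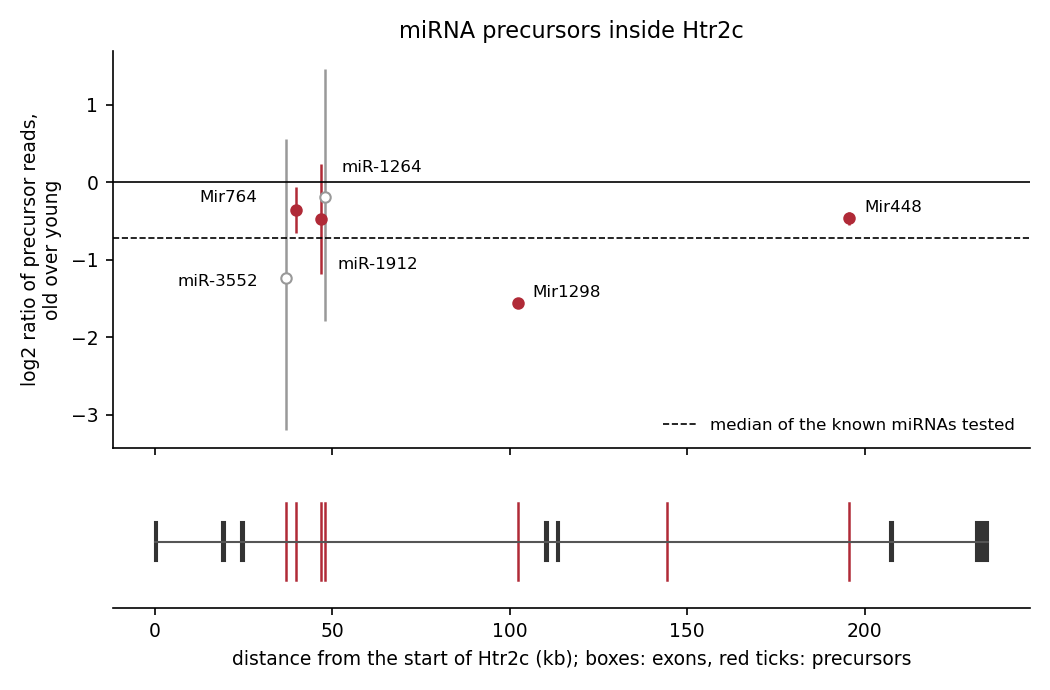
Upper part, log2 ratio of old over young of the reads whose only perfect genome match lay at each miRNA hairpin of Htr2c, with exact 95% intervals, against distance from the start of the gene in kb (open grey points had fewer than 20 reads in all). The lower part shows exons as boxes and hairpins as red ticks, and Mir1298 at -1.56 stands below Mir764, miR-1912 and Mir448, whose values lie between -0.48 and -0.36.

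Against the other miRNAs of the gene, miR-1298 fell by a similar amount. The miR-1298 to miR-1912 ratio changed by -1.13 (-1.82 to -0.44) on the log2 scale (Fisher's exact p = 0.00088), and the miR-1298 to miR-764-3p ratio (both starts of miR-764-3p, described below) by -1.13 (-1.41 to -0.86; Fisher's exact p = 1.48e-16). miR-448-3p changed by -0.10 (-0.79 to 0.59) against miR-1912 and by -0.10 (-0.38 to 0.18) against miR-764-3p, with Fisher's exact p-values of 0.818 and 0.503.

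The rarest products of Htr2c could not be compared. The hairpin of miR-3552, whose mature strand is the same as a candidate of the study (aggcugcaggcccacuucccu), had 8 young and 5 old reads, a log2 ratio of -1.24 (-3.19 to 0.56). These reads came from 3 of its 5 perfect tags, since the others matched the genome more than once. The hairpin of miR-1264 had 7 and 9 reads, and that of miR-1911 had 0 in both. Of the 7 names of the Htr2c list, 4 reached 10 reads in a library and 1 of them was lower by at least 2-fold, beside 30.9% of all 269. The median log2 ratio of the 4 was -0.45 beside -0.72 for all 269, and -0.65 beside -0.69 with the correction for GC content. miR-764-3p entered this list by its reference start.

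miR-764-3p was read mostly from a start 1 base upstream of its reference strand. The reference strand and the commonest deposited tag are shown with bases 2 to 8 in capitals, because the shift changes the seed.
miR-764-3p, reference: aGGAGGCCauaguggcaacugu
miR-764-3p, commonest tag: gAGGAGGCcatagtggcaactgt

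The commonest tag had 153 young and 174 old reads. The shifted start had 214 young and 230 old reads with a log2 ratio of -0.45 (-0.73 to -0.18), against 10 and 19 reads for the reference start. Of the perfectly matching reads of this strand, 97.2% in the young and 94.6% in the old library had a shifted start. In the members, 1.01% (young) and 1.18% (old) of the miR-1298-5p reads and 0.600% and 1.12% of the miR-448-3p reads were shifted. For miR-204-5p the share was 1.90% (95% Wilson interval 0.815 to 4.37%) of 263 young reads and 7.20% (3.83 to 13.1%) of 125 old reads. These intervals overlapped in part, which does not place the difference within counting error, and it was not tested. The only perfectly matching old read of miR-448-5p was shifted, against 0 of 5 young reads.

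The arm that gave the mature strand differed between the hairpins. Mir1298 was read from the 5p arm in 99.5% of its young and 99.1% of its old reads. Mir448 was the reverse, with 0.230% and 0.0432% of its reads on the 5p arm. Mir204 was less one-sided, with 83.5% (79.0 to 87.2%) of the young and 75.8% (68.7 to 81.7%) of the old reads on the 5p arm, and the p of Fisher's exact test was 0.0504.

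The 3p strand of Mir204, miR-204*, had 74 young and 56 old reads, 16.4 and 8.41 RPM, a log2 ratio of -0.96 (-1.49 to -0.44). Counted by the starts of both arms, the 5p share of Mir204 was 80.4% and 72.5% (Fisher's exact p = 0.0367), so the call depended on how the arms were counted. The 3p strand of Mir1298, miR-1298*, had 25 and 27 reads and a log2 ratio of -0.45 (-1.29 to 0.40). The 5p share of Mir1298 was lower in the old library by either count, with Fisher's exact p = 0.0269 for perfect tags and 0.00763 for starts. These p-values of the arms are not adjusted.

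A further small RNA came from the base of the Mir204 hairpin. It is shown because the study listed it as a candidate miRNA and because it ends where miR-204-5p begins.
Mir204 offset RNA: cuucaugugacucguggac

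In all, 5 tags of 17 to 21 bases shared its 3′ end, directly before the first base of miR-204-5p, and differed in their starts. The longest began at base 22825079 of chromosome 19 in NCBIM37, so most of the sequence lies upstream of the annotated hairpin. Together they had 32 young and 12 old reads, a log2 ratio of -1.97 (-3.07 to -0.98) with p = 1.87e-05 in the exact binomial test. This was 10.5 reads in the young and 8.11 reads in the old library per 100 reads of miR-204. All 3 products of Mir204 were lower in the old library by library totals, but the interval of miR-204* (-1.49 to -0.44) held the median of -0.72 of all miRNAs. The intervals of the 5p strand and the offset RNA overlapped.

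**Figure D4:**
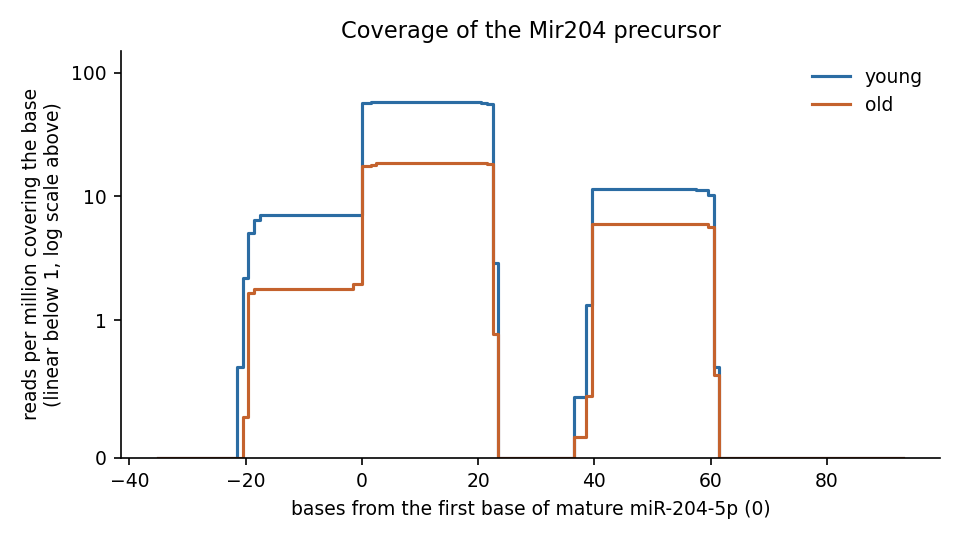
RPM covering each base around Mir204 (log scale above 1, linear below) in the young (blue) and old (orange) library, against distance from the first base of miR-204-5p. The 3 blocks are the offset RNA, the 5p strand and the 3p strand, each lower in the old library by library totals, and the offset RNA stops where the 5p strand starts.

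The 3′ ends of the members were mixed, and for miR-448-3p the reference strand was a minor form. The 22-base reference strand had 179 young and 250 old reads, 6.22% and 8.37% of the reads with its start. Over the known miRNAs with at least 100 reads the median share of the counted sequence was 35.3% in the young and 34.8% in the old library. The form 1 base shorter was the commonest, with 1855 and 1968 reads. Counted by the 22-base strand alone, the log2 ratio of miR-448-3p was -0.08 (-0.36 to 0.21), against -0.50 for all reads of the start.

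miR-1298 had 2 templated forms of similar abundance, shown with the seed in capitals.
miR-1298, 21 bases: tTCATTCGgctgtccagatgt
miR-1298, 22 bases: tTCATTCGgctgtccagatgta

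The 21-base form had 2686 young and 1220 old reads and the 22-base reference form had 2463 and 1329. The 21-base form was 40.4% of all miR-1298 reads in the young and 36.2% in the old library (adjusted p = 0.000266, Fisher's exact test with Benjamini-Hochberg adjustment over the 174 miRNAs with at least 100 reads in both libraries). A difference of this kind passed that test for 50 of the 174 miRNAs (28.7%). The commonest form of miR-204, its 22-base reference strand, had shares of 77.0% and 73.0%, and that of miR-448-3p 64.5% and 65.9%. Their adjusted p-values were 0.590 and 0.522 in the same exact test. Other lengths of miR-448-3p did differ among its templated reads. The 19-base form was 2.37% (young) and 0.919% (old), with Fisher's exact p = 0.000123. The 20-base form was 3.02% and 2.01% (Fisher's exact p = 0.0343), and the 22-base form 8.32% and 10.9% (Fisher's exact p = 0.00373). The p-values of these lengths are not adjusted.

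Reads with 1 extra base that the genome does not hold made up much of the rest. An extra base that the genome holds at that place counted as templated. This covers U on the 21-base form of miR-448-3p and A on the 21-base form of miR-1298. Shares of additions are therefore not fully comparable between the miRNAs. Additions of U were 8.83% of the young and 11.2% of the old miR-1298 reads (Fisher's exact p = 0.000192), 9.54% and 14.2% of miR-204 reads (p = 0.152 by the same exact test), and 9.84% and 8.53% of miR-448-3p reads (p = 0.0856 by the same exact test). Additions of A were 8.64% and 8.01% of miR-1298 reads, but 1.64% and 2.03% of miR-204 reads. The 3′ adapter also begins with T, and its part in the U additions was not tested. These p-values are not adjusted, and 4 of the 24 classes compared were under 0.05, of which 2 were reads with undetermined bases, seen in the young library only.

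**Figure D5:**
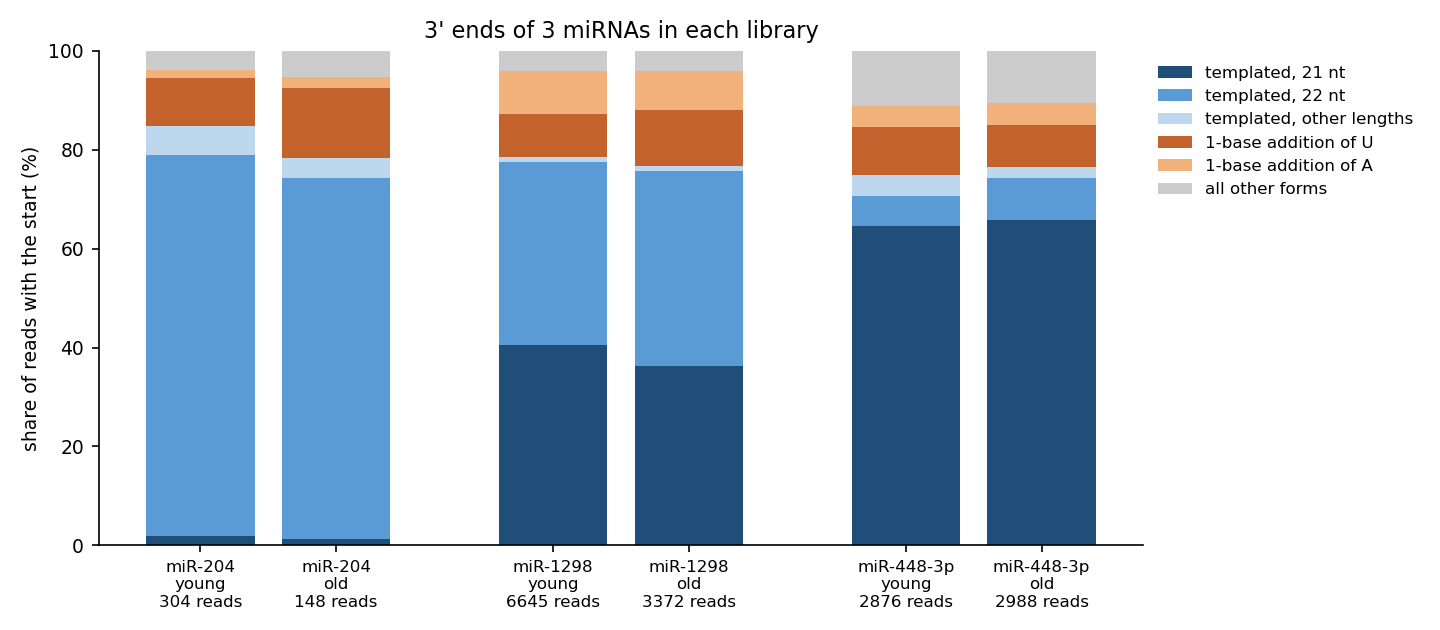
Share of the reads of miR-204, miR-1298 and miR-448-3p by form of the 3′ end, in percent of all reads with the start, for the young and the old library. miR-204 is mostly 22 bases, miR-448-3p mostly 21 bases, and miR-1298 is split between 21 and 22 bases, with a 21-base share of 40.4% in the young and 36.2% in the old library.

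Lists of miRNAs named for the ventricle lining and for other cells were read beside the members. Of the 6 names of the multiciliated list (miR-34b, miR-34c and miR-449), 4 had at least 10 reads. The list is named for cells with motile cilia such as ependyma and choroid plexus epithelium. In whole brain the cells that gave these reads are not known. Their summed level was 7161 RPM in the young and 6306 RPM in the old library, nearly all of it miR-34c (32054 and 41574 reads, log2 ratio -0.18, -0.20 to -0.16). The median of the 4 was -0.23, and 1 was lower by at least 2-fold, miR-449a with 13 and 9 reads. In this and the other lists the shares over all 269 miRNAs are 30.9% lower by at least 2-fold and 65.8% lower in the exact binomial test with Benjamini-Hochberg adjustment, which 1 of the 4 passed. Per read of miR-34c, miR-1298 changed by -1.35 (-1.42 to -1.29), miR-204 by -1.41 (-1.71 to -1.12) and miR-448-3p by -0.32 (-0.40 to -0.24) on the log2 scale.

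In the list of other epithelia and of sensory or pineal tissue (the miR-200 and miR-183 families), 6 of 8 names had at least 10 reads, 2 were lower by at least 2-fold and 2 were lower in that test, with a median log2 ratio of -0.61. This list was low in reads, with a summed level of 80.7 RPM in the young and 59.5 RPM in the old library. In the list of blood and vessels 6 of 9 names were resolved to a sequence, and 5 of these had at least 10 reads. Of the 5, 0 were lower by at least 2-fold and 4 were lower in the test, with a median of -0.87. Reads of the unresolved names were not counted, so these values cover only part of that list. In the list of neurons all 5 had at least 10 reads and all 5 were lower in the test. In this list 1 was lower by at least 2-fold, miR-124, at -1.21 with 178300 and 113206 reads, and the median was -0.82. miR-204 and miR-1298 were lower than the median of each list, while miR-448-3p was above those of the epithelial, blood and neuronal lists. The share of choroid plexus in the brains of each library was not measured, and its part in these ratios was not tested.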

How the data were processed

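The authors aligned reads of 36 bases to mm9 with SOAP, removed the 3′ adapter with up to 3 mismatches and deposited raw counts per distinct sequence (tag). No column of another sample was used. A known miRNA was the tag whose counts equal those the study lists for it, or else its mature sequence or, for 13 names, the only such tag inside its hairpin, plus all tags with the same first 18 bases. Of 405 names without a star, 52 were left unresolved and the others gave 343 distinct starts, of which 269 had at least 10 reads in a library. Counts were scaled by the genome-aligned reads of each library, and 0.5 stood in for a count of 0 in ratios. Perfect matches, positions and hosts came from NCBIM37 and its annotation, and mature sequences from RefSeq (GRCm38.p6).

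Libraries were compared by the exact binomial test (two-sided) and shares by Fisher's exact test (two-sided), with 95% Poisson, Wilson or exact conditional intervals. edgeR's quasi-likelihood test could not be fitted with 1 library per age. Scripts used Python 3.11.15, scipy 1.17.1, R 4.3.3, edgeR 4.0.16 and DESeq2 1.42.0, and were tested on simulated data.

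The named miRNAs are the members, others in their host genes, their star strands, seed relatives, the 3 nearest in level and the lists. Members and lists were chosen with earlier results of these data known. The within-library ratios were added after the counts were seen.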

Additional observations from a re-analysis of the deposited data

How the results depend on the processing

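No paired analysis was possible because there is 1 library per age and the labels give no replicate numbers. Leaving out a library was not run, since each age has 1. Of 119 values recomputed under alternatives, 88 were rated the same. For ratios this meant the same direction and the same side of the 0.05 threshold, without regard to the 2-fold mark. Counts of miRNAs had to stay within a set factor of the main count. Medians had to stay within the quartiles of the main ratios, and shares within the main 95% interval. miR-204 and miR-1298 stayed lower in the old library under each of the 11 alternatives, but under 2-fold with TMM or DESeq2 scaling.

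miR-448-3p turned to 0.22 under TMM scaling and to 0.22 under DESeq2 scaling, and its counted tag alone gave -0.076. miR-1264-3p turned to 0.17 and 0.16 with the 2 factors. The median of all miRNAs became 0.0056 with TMM and 0 with DESeq2, and that of the Htr2c list 0.27 with both (0.271 and 0.265), -0.084 without let-7 reads and -0.16 by the counted tag. The TMM, DESeq2 and let-7 depths move all ratios alike, while counting a single tag moves each miRNA by a different amount.

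The 83 miRNAs lower by at least 2-fold became 15 with TMM, 15 with DESeq2, 36 without let-7, 55 with single-match depth and 45 with names from a single tag. The 6 higher became 34, 34 and 17 with the first 3 of these, 12 with no minimum, 3 with a minimum of 50 reads and 2 with names from a single tag. Fewer or more miRNAs enter by construction in the last 3.

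Among perfect tags alone the commonest form was 90.7% and 93.1% of miR-204, 51.5% and 47.1% of miR-1298 and 86.2% and 86.1% of miR-448-3p, since other forms leave the total. By starts the 5p share of Mir448 was 0% in the old library. The miR-204 to miR-1298 change was 0.023 with the commonest tag of each, and the ratios of miR-1298 and of miR-204 to miR-448-3p did not turn; the other 7 ratios were not recomputed. A correction for GC content gave -1.71 for miR-204, -1.65 for miR-1298 and -0.78 for miR-448-3p. With few reads, miR-1264 and miR-3552 differed by less than counting error, and miR-448-5p had 1 and 0 reads by its counted tag alone.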
